A study of Mus musculus with 16 samples.

Results

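The interferon regulatory factor genes Irf1, Irf2, Irf3, Irf4 and Irf8 were followed in CD4+ T cells of mice infected with the roundworm Nippostrongylus brasiliensis. They were taken by gene symbol, and all 5 were found in both gene lists, among 31053 genes in the first run and 32285 in the second. Of the other genes of the family, Irf5, Irf7 and Irf9 serve only as comparison. Cells were collected on day 10 after infection from 4get/C57BL/6 mice, a reporter strain in which transcription of the Il4 locus gives green fluorescence (IL-4eGFP). The reporter also marks early stages of Th2 differentiation.

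In the first run, CD4+IL-4eGFP+ cells of lung and mesenteric lymph node (MLN) came from 2 mice of 13 weeks and filled 4 gene expression libraries. In the second run, 4 hashtags marked CD4+ cells of the lung-draining mediastinal lymph node (medLN) and the MLN of 2 other mice of 10 weeks, and the sorted IL-4eGFP+ cells formed 1 library and the sorted IL-4eGFP- cells another. All mice were infected, so there is no uninfected control. In each run the organs came from the same animals, and each group held 2 mice. The main tests between organs or gates were unpaired, so samples of the same mouse counted as independent. Tests of marker cells paired the 2 sums of each sample, so their p-values rest on how that difference varied across samples of 2 mice. Lungs were perfused, digested with enzymes and passed over Percoll, whereas nodes were only mashed, so organ and tissue processing cannot be told apart. Each gate was a library of its own, so gate and library cannot be told apart either. After filtering, 21462 cells remained, of which 4714 were in the first run, 8074 IL-4eGFP+ and 8674 IL-4eGFP- in the second. A sample held 416 to 2462 cells and 2798232 to 14512767 unique molecular identifiers (UMIs, counts of captured mRNA molecules). At least 1 of the T cell markers Cd3d, Cd3e, Cd3g and Cd4 was detected in 99.2% to 100% of cells of each sample. The summed level of the Th2 markers Il4, Gata3 and Il13 was 1603 and 1292 CPM (UMIs per 1000000 UMIs of the sample) in the lung samples, 593 and 617 in the MLN of that run, 362 to 490 in the IL-4eGFP+ and 30.6 to 42.7 in the IL-4eGFP- samples.

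Interferon regulatory factors are transcription factors with a common DNA-binding domain that reads repeats of GAAA. IRF1 is made in response to interferon gamma and activates interferon genes, IRF2 competes for the same DNA element, and IRF3 is present in resting cells and is switched on by phosphorylation after nucleic acid sensing. IRF4 is induced in T cells by antigen receptor signalling, binds DNA together with BATF and JUN proteins and is needed for Th2 differentiation, whereas IRF8 is best known from dendritic cells, macrophages and B cells. Irf1 also lies beside the type 2 cytokine genes, 44907 bases from Il5, 135311 from Il13 and 151344 from Il4, all on the same side of it.

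On the mouse genome build GRCm38, all 5 genes are annotated on the plus strand. Irf1 (ENSMUSG00000018899) spans chr11:53770014-53778374 and Irf2 (ENSMUSG00000031627) chr8:46739732-46847458. Irf3 (ENSMUSG00000003184) spans chr7:44997648-45002848, Irf4 (ENSMUSG00000021356) chr13:30749226-30766976 and Irf8 (ENSMUSG00000041515) chr8:120736358-120756694. The antisense gene Bcl2l12 overlaps the start of Irf3, and antisense models overlap Irf1 and Irf2 as well. A same-strand model, Gm20388, runs over Irf8 with 0 UMIs in all samples. Whether reads shared with such neighbours were lost from the counts was not tested.

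The promoters of the 3 genes with the largest differences between the gates follow, each from the first base of the RefSeq window to the base before the annotated start (GRCm38.p6, plus strand, 5′ to 3′, Irf1 at chr11:53769764-53770013, Irf2 at chr8:46739495-46739731 and Irf4 at chr13:30748983-30749225). They are shown so that elements read by the family, by STAT factors and by NF-κB can be seen. Capitals mark matches to the motifs searched.
Irf1: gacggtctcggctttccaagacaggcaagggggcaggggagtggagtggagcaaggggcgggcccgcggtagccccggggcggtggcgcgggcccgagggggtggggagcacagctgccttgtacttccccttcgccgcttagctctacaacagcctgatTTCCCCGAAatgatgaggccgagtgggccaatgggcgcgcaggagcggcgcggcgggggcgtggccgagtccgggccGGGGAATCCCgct
Irf2: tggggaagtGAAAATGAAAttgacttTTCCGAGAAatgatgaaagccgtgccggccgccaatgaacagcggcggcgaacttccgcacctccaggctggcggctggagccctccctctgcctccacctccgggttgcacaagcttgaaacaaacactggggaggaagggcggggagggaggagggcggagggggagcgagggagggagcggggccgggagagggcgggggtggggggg
Irf4: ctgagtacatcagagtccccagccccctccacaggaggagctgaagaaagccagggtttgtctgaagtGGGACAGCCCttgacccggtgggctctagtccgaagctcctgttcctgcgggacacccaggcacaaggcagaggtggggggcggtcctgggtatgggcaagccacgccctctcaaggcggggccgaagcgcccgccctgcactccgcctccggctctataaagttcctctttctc
Windows of 250 bases before to 50 bases after the start were searched on both strands. The interferon response element core GAAANNGAAA was in 3.44% of all 32851 windows, the STAT element TTCNNNGAA (GAS) in 8.30%, the AP-1 element TGANTCA in 7.81% and the NF-κB element GGGANNNNCC in 20.7%. In Irf1, the capitals are a GAS match that began 90 bases before the start and an NF-κB match that began 13 bases before it. The Irf2 window held a response element match and a GAS match, the Irf4 window an NF-κB match, the Irf8 window 2 GAS and 2 NF-κB matches and the Irf3 window none. These matches describe letters, not binding.

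Irf4 was 3.9-fold higher in lung than in MLN cells, 1.76-fold higher in medLN than in MLN cells among IL-4eGFP+ cells, and 3.28-fold higher in IL-4eGFP+ than in IL-4eGFP- cells. Irf1, Irf2 and Irf3 were lower in IL-4eGFP+ than in IL-4eGFP- cells, by 2.27-fold, 1.39-fold and 1.12-fold, of which the Irf3 difference turned to the other direction with library sizes alone as the scaling. Irf3 was also lower in lung than in MLN, by 1.5-fold. Irf8 was detected in few cells, and many of its UMIs were in cells that also held B cell, plasma cell or myeloid transcripts. Levels are given as CPM, the UMIs of a gene relative to all UMIs of the sample after T-cell receptor genes were left out, and differences as log2 ratios of the TMM-normalised counts with their standard error (SE), tested by edgeR's quasi-likelihood test with p adjusted after Benjamini and Hochberg across every gene in the fit. In sums over a sample, fewer cells expressing a gene and less RNA per cell cannot be told apart, so shares of cells are given beside the levels.

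**Figure D1:**
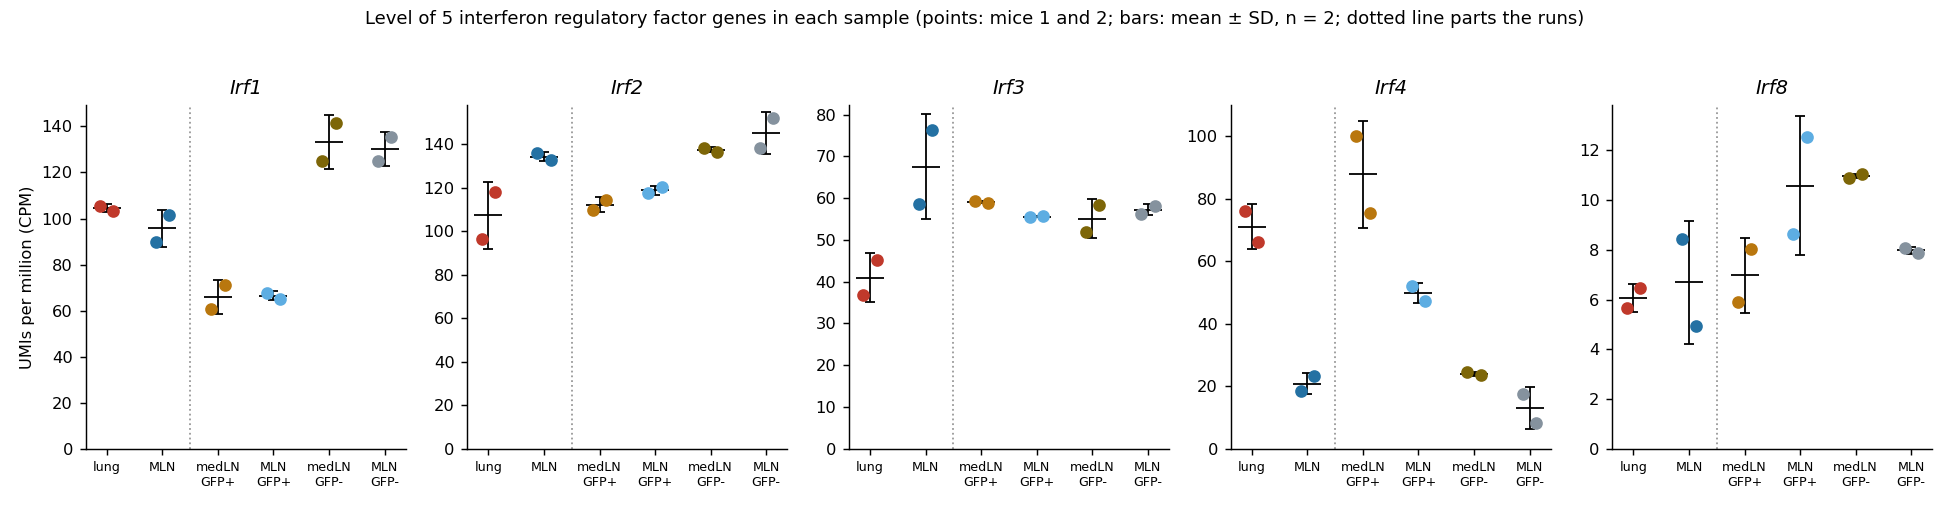
Level (CPM) of each gene in the 6 groups, 1 point per mouse with mean ± SD (n = 2), and a dotted line between the lung and MLN run and the medLN and MLN run. Irf4 lies at 66.0 and 76.1 CPM in lung against 18.6 and 23.1 in MLN, and within the second run every IL-4eGFP+ point lies above every IL-4eGFP- point, while for Irf1 every IL-4eGFP+ point of that run lies below.

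The first comparison asked how IL-4eGFP+ cells of an inflamed peripheral organ differ from those of a distant lymph node, the MLN, which belongs to the intestine. Irf4 stood at 76.1 and 66.0 CPM in lung 1 and 2 and at 18.6 and 23.1 CPM in MLN 1 and 2. Both lung samples exceeded both MLN samples, and the difference held within each mouse, at 4.10-fold and 2.85-fold. The log2 difference was 1.96 (SE 0.16, 95% interval 1.59 to 2.33, adjusted p = 2.41e-05). An Irf4 UMI was found in 26.5% and 22.8% of lung cells and in 5.97% and 7.56% of MLN cells. The lung cells were also deeper, with medians of 6910 and 5766 UMIs against 4980 and 4971. With every cell thinned to 1500 UMIs, 10.0% and 9.47% of lung cells still held an Irf4 UMI against 1.80% and 1.73% of MLN cells. No cell type that should lack these genes was captured, so a background share from free RNA could not be set beside these shares.

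Of the 5 genes, Irf4 and Irf3 passed the threshold between lung and MLN, where 31.0% of all 10588 genes did. Irf3 stood at 36.8 and 45.2 CPM in lung 1 and 2 and at 58.6 and 76.4 CPM in MLN 1 and 2. Its groups did not overlap, and its log2 difference was −0.59 (SE 0.15, adjusted p = 0.0161). Where a sample was left out, the lone sample of its group was assumed to vary like the other group. The Irf3 call was lost without lung 1 (log2 −0.50, adjusted p = 0.0667), without MLN 2 (−0.41, adjusted p = 0.129) and among cells without an Nr4a1 or Egr2 UMI (−0.25, adjusted p = 0.486). Irf1 stood at 106 and 103 CPM in lung against 90.0 and 102 CPM in MLN, a log2 difference of 0.27 (SE 0.12, adjusted p = 0.113). Irf2 stood at 96.5 and 118 CPM in lung against 136 and 133 CPM in MLN, a difference of −0.20 (SE 0.11, adjusted p = 0.189). For Irf1 and Irf2 the groups also did not overlap, although neither passed, and for Irf1 the nearest samples stood at 103 and 102 CPM. The share of all genes whose groups did not overlap was not counted in any comparison. With 2 samples a group, such separation alone therefore carries little weight. Of the 17 alternatives tried, Irf1 passed in 1, without lung 2 (log2 0.36). Irf8 ranged from 4.94 to 8.45 CPM over the 4 samples with overlapping groups, and its log2 difference of −0.11 had an interval from −0.81 to 0.58.

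The genes around Irf4 were described through lists of partners and inducers. Over all 10588 genes, 1803 were higher in lung and 1481 lower. Of 10 partners on DNA, 8 were tested, 3 were higher in lung and 2 lower. Junb, the JUN protein that pairs with BATF, stood at 4970 ± 577 CPM (SD, n = 2) in lung and 312 ± 126 CPM in MLN (log2 4.13, SE 0.29, adjusted p = 7.85e-06). Jun (log2 1.51) and Jund (1.5) were higher too, whereas Bcl6, the repressor that defines follicular helper cells, was lower (−1.24, adjusted p = 0.000322). All 10 inducers and counterparts were tested, and 5 were higher and 1 lower in lung, with a median log2 difference of 0.72 against −0.01 over all genes. Nr4a1, an immediate-early gene of antigen receptor signalling, stood at 866 ± 149 CPM in lung and 30.9 ± 0.48 CPM in MLN (log2 4.96, adjusted p = 4.45e-07). Rel, an NF-κB subunit, was 1.47 log2 units higher. Egr2, another receptor-induced factor, went the other way, at 13.5 ± 2.65 CPM in lung and 41.1 ± 10.2 CPM in MLN (log2 −1.48, adjusted p = 0.000604). Only the lung was digested with enzymes, and the part of digestion in these differences cannot be told apart from the organ.

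Interferon response genes differed between the organs as well. Of 10 type I interferon targets, 9 were lower in lung and none higher, with a median log2 difference of −1.84 against −0.01 over all genes. Over all 10588 genes, 1481 were lower and 1803 higher. The MLN samples were unlike each other in this response. Interferon-high cells, described below, were 22.2% of MLN 1 and 7.56% of MLN 2, against 1.85% and 5.53% of lung 1 and 2. Ifit1 was lowest among those named, at 8.50 ± 2.68 CPM in lung and 67.9 ± 46.2 CPM in MLN (log2 −3.03, adjusted p = 0.00115). Among the 12 interferon-gamma and IRF1 targets, 1 was higher and 3 were lower, with Gbp7 at 0.94, Irgm1 at −1.32 and Psmb9 at −0.58. The receptor chains Ifngr1 (log2 2.91), Ifngr2 (1.79) and Ifnar1 (1.45) were higher in lung, and Ifnar2 (−0.55) was lower, and over the list of 9 the counts were 3 higher and 2 lower. On the sensing route to IRF3 and IRF7, 1 of 10 was higher and 4 were lower, among them the kinase gene Ikbke (−1.44) and the adaptor gene Tmem173 (−0.54). Irf2bp2, a corepressor of IRF2, was the member of its list of 3 that passed, at 76.5 ± 5.36 CPM in lung and 37.9 ± 3.00 CPM in MLN (log2 1.16). Among the comparison genes, Irf5 was higher in lung (log2 1.49, adjusted p = 0.000648), and the interferon-induced Irf7 (−1.19, adjusted p = 0.0303) and Irf9 (−1.06, adjusted p = 0.00186) were lower. Irf7 stood at 31.2 and 74.9 CPM in lung 1 and 2 and at 158 and 82.4 CPM in MLN 1 and 2, so its difference lay mostly in mouse 1. The Irf7 call was lost without lung 1 (log2 −0.66, adjusted p = 0.105), without MLN 1 (−0.59, adjusted p = 0.151) and by DESeq2 (adjusted p = 0.335).

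The second run compared the lung-draining medLN with the MLN. Among IL-4eGFP+ cells, Irf4 stood at 99.9 and 75.5 CPM in medLN 1 and 2 and at 51.9 and 47.4 CPM in MLN 1 and 2. Both medLN samples exceeded both MLN samples, by 1.92-fold and 1.59-fold within a mouse. The log2 difference was 0.81 (SE 0.13, 95% interval 0.52 to 1.10, adjusted p = 0.0283), and Irf4 was the sole gene of the 5 to pass, where 1.28% of 11263 genes did. The call was lost without medLN 1 (log2 0.59, adjusted p = 0.0869) and without MLN 2 (adjusted p = 0.0848). In thinned cells, 7.75% and 6.96% of medLN against 4.29% and 4.12% of MLN cells held an Irf4 UMI. Irf4 UMIs were gathered in few cells. A count of at least 5 Irf4 UMIs was reached by 63 and 39 medLN cells, which held 55.7% and 48.5% of the Irf4 UMIs of their sample, and by 22 and 29 MLN cells with 38.7% and 41.6%.

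Among IL-4eGFP- cells, Irf4 stood at 24.4 and 23.5 CPM in medLN 1 and 2 and at 17.7 and 8.27 CPM in MLN 1 and 2. The groups did not overlap, and the log2 difference was 0.83 (SE 0.23), but the adjusted p was 0.396. None of the 5 genes passed by edgeR, where 0.178% of 10684 genes did, while Irf4 and Irf8 had an unadjusted p under 0.05. With the mouse as a block, which pairs the organs of each animal, 65 genes passed rather than 19 and Irf4 was among them (log2 0.85, adjusted p = 0.0226). With a sample left out, 98 to 194 genes passed rather than 19, and Irf4 was among them without medLN 1, medLN 2 or MLN 1 (adjusted p from 1.83e-11 to 0.000886). Those fits take the spread from fewer samples and lend no support to the Irf4 difference. The MLN 2 sample held 65 Irf4 UMIs against 142 to 188 in the other IL-4eGFP- samples. The difference between the gates in the organ effect on Irf4 was −0.01 log2 units with an interval from −0.70 to 0.68. None of the 5 passed that test by edgeR, where 0.156% of genes did, and Irf8 alone had an unadjusted p under 0.05.

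Irf1, Irf2 and Irf3 differed little between the nodes. Within the IL-4eGFP+ gate their log2 differences were −0.02, −0.09 and 0.08, with adjusted p from 0.616 to 0.955, and within the IL-4eGFP- gate they were −0.02, −0.13 and −0.11. The intervals lay between −0.24 and 0.24 in the first gate and between −0.30 and 0.15 in the second. Of the pathway lists, 2 genes passed in IL-4eGFP+ cells, the NF-κB gene Nfkb1 (161 ± 0.80 CPM in medLN, 126 ± 2.74 CPM in MLN, log2 0.35, adjusted p = 0.0335) and the interferon-induced GTPase gene Gbp2 (27.6 ± 3.17 and 40.9 ± 3.40 CPM, log2 −0.58, adjusted p = 0.0441). In IL-4eGFP- cells no gene of any list passed.

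**Figure D2:**
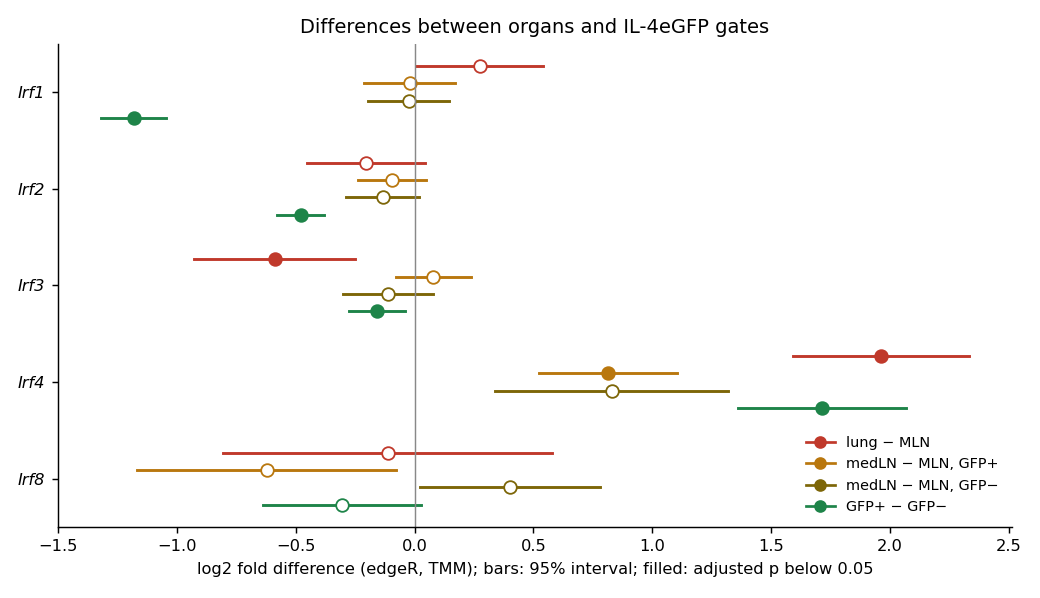
Log2 differences of the 5 genes in 4 comparisons, with 95% intervals from edgeR, filled where the adjusted p was below 0.05. The Irf4 points lie between 0.81 and 1.96. The Irf1 point for IL-4eGFP+ against IL-4eGFP- lies at −1.18, those for medLN against MLN at −0.02 and that for lung against MLN at 0.27.

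IL-4eGFP+ cells were then set against IL-4eGFP- cells of the same nodes and mice, where 62.1% of 11535 genes passed. The 4 calls among the 5 genes are near that share. With library sizes alone in place of TMM the median of all genes shifted by 0.18 log2 units, and the split of calls went from 3667 higher and 3495 lower to 5336 higher and 2071 lower. Irf4 stood at 99.9, 75.5, 51.9 and 47.4 CPM in the IL-4eGFP+ samples of medLN 1, medLN 2, MLN 1 and MLN 2, and at 24.4, 23.5, 17.7 and 8.27 CPM in the IL-4eGFP- samples in that order. The gates did not overlap, and the log2 difference was 1.71 (SE 0.16, adjusted p = 3.74e-06), with 1.71 in the medLN and 1.72 in the MLN. In thinned cells 4.12% to 7.75% of IL-4eGFP+ and 0.846% to 2.16% of IL-4eGFP- cells held an Irf4 UMI.

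Irf1 went the opposite way. It stood at 60.8, 71.1, 67.8 and 65.1 CPM in the IL-4eGFP+ samples and at 125, 142, 125 and 136 CPM in the IL-4eGFP- samples. The gates were far apart and the mice of a gate close together. The log2 difference was −1.18 (SE 0.06, adjusted p = 3.51e-08), and it was −1.18 in the medLN and −1.19 in the MLN. In thinned cells 9.93% to 11.6% of IL-4eGFP+ and 16.4% to 20.1% of IL-4eGFP- cells held an Irf1 UMI. Cells without an Mki67 or Top2a UMI alone gave a log2 difference of −0.90.

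Irf2 stood at 110, 115, 118 and 120 CPM in the IL-4eGFP+ samples and at 138, 137, 139 and 152 CPM in the IL-4eGFP- samples. The gates did not overlap, and the log2 difference was −0.48 (SE 0.05, adjusted p = 4.08e-06). The TMM factors of the gates differed by 0.19 log2 units, which is part of this difference. The thinned shares of Irf2 did overlap, at 17.4% to 22.0% and 17.9% to 20.7%. Irf3 stood at 59.3, 58.9, 55.4 and 55.7 CPM and at 51.8, 58.4, 56.3 and 58.2 CPM, so the gates overlapped. Its log2 difference of −0.16 (SE 0.05, adjusted p = 0.0226) depended on the scaling, since with library sizes alone it was 0.03 (adjusted p = 0.629). It was also lost without medLN 2 or MLN 1 of the IL-4eGFP+ gate or medLN 2 or MLN 2 of the IL-4eGFP- gate, with adjusted p from 0.0531 to 0.109, and by DESeq2 (adjusted p = 0.168).

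The interferon-gamma and IRF1 targets were all lower in IL-4eGFP+ cells, 12 of 12, with a median log2 difference of −0.79 against −0.01 over all genes. Over all 11535 genes, 3495 were lower and 3667 higher. Iigp1, a GTPase of cell-autonomous defence, stood at 5.15 ± 1.42 CPM in IL-4eGFP+ and 25.6 ± 4.70 CPM in IL-4eGFP- samples (n = 4 samples each, from the same 2 mice, log2 −2.50, adjusted p = 1.11e-07). Socs1, a brake on cytokine receptor signalling, fell by 1.6 on the log2 scale, Gbp7 by 1.15 and Igtp by 1.00. Of 9 tested type I interferon targets, 7 were lower and none higher, with Usp18 at −1.95, Oasl2 at −1.84, Ifit3 at −1.57 and Ifit1 at −0.96. Among receptors and signal carriers, 2 of 9 were higher and 5 lower. The interferon-gamma receptor genes Ifngr1 (−1.35) and Ifngr2 (−1.42) were lower, and the kinase gene Jak2 was higher, at 133 ± 3.17 CPM and 46.6 ± 1.43 CPM (log2 1.32, adjusted p = 1.15e-09). Of the sensing genes 2 of 10 were higher, among them Ifih1 (0.41), and 3 were lower, among them Ddx58 (−1.13), again a share near that of all genes.

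Partners and inducers of IRF4 were divided between the gates. Batf, the AP-1 factor that recruits IRF4, stood at 174 ± 30.3 CPM in IL-4eGFP+ and 85.0 ± 16.1 CPM in IL-4eGFP- samples (log2 0.86, adjusted p = 3.78e-05). Bcl6 was higher as well (log2 1.36), Jund lower (−0.85), and 4 of 9 tested partners were higher and 3 lower, near the 62.1% of all genes that passed. Of the 10 inducers and counterparts, 5 were higher and 5 lower, with Nfatc1 at 1.04, Egr2 at 0.94, Myc at −1.73 and Nr4a1 at −0.79. Irf2bpl, of the IRF2 binding proteins, was lower (−0.50), as were Irf7 (−0.59, adjusted p = 0.00659) and Irf9 (−0.63, adjusted p = 0.000104).

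Ordered by mean, Irf4 stood at 87.7 ± 17.2 CPM in medLN IL-4eGFP+, 71.0 ± 7.20 in lung, 49.7 ± 3.22 in MLN IL-4eGFP+, 24 ± 0.61 in medLN IL-4eGFP-, 20.8 ± 3.23 in MLN of the first run and 13 ± 6.63 CPM in MLN IL-4eGFP- cells (SD, n = 2 each). The steps from lung to MLN IL-4eGFP+ and from there to medLN IL-4eGFP- exceeded the summed SDs of the neighbours, and the other steps did not. The step from lung to MLN IL-4eGFP+ lies between the runs, so run and organ cannot be told apart in it. MLN IL-4eGFP+ cells thus stood at 20.8 CPM in one run and 49.7 CPM in the other, from different mice and runs, and no test was made across the runs. For Irf1 the order was medLN IL-4eGFP- (133 ± 11.8 CPM), MLN IL-4eGFP- (130 ± 7.41), lung (104 ± 1.67), MLN of the first run (95.8 ± 8.12), MLN IL-4eGFP+ (66.5 ± 1.86) and medLN IL-4eGFP+ (65.9 ± 7.24). The steps from MLN IL-4eGFP- to lung and from MLN of the first run to MLN IL-4eGFP+ exceeded the summed SDs, and the other steps did not. Both of these Irf1 steps lie between the runs, so run and group cannot be told apart in them. The second of them sets MLN IL-4eGFP+ cells of one run against those of the other.

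Among the marker classes read within samples, those of receptor-induced transcripts gave the largest Irf4 difference. Cells with a UMI of Nr4a1 or Egr2 made up 86.2% and 76.9% of lung, 9.83% and 13.3% of MLN, 7.93% to 10.1% of IL-4eGFP+ and 5.03% to 6.03% of IL-4eGFP- cells. In IL-4eGFP- samples, Irf4 stood at 193, 156, 126 and 60.0 CPM in such cells of medLN 1, medLN 2, MLN 1 and MLN 2 and at 11.9, 13.6, 10.4 and 5.01 CPM in the remaining cells. In every sample of this gate the cells with such a UMI were far above the rest, and the log2 difference within samples was 3.62 (SE 0.15, adjusted p = 4.78e-18). In the IL-4eGFP+ samples the values were 311, 270, 154 and 169 CPM with and 74.3, 50.3, 42.7 and 34.3 CPM without (log2 2.20, SE 0.09, adjusted p = 6.29e-14). On the log2 scale the rise was thus smaller in the IL-4eGFP+ gate, and the difference of the differences was −1.42 (SE 0.16, adjusted p = 1.10e-06), where 2.68% of genes passed. In CPM, cells with and cells without such a UMI both stood higher in each IL-4eGFP+ sample than in the IL-4eGFP- sample of the same organ and mouse.

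In the first run the organs parted. In MLN 1 and 2, Irf4 stood at 75.7 and 70.5 CPM in cells with an Nr4a1 or Egr2 UMI and at 11.3 and 15 CPM in cells without. In lung 1 and 2 it stood at 75.9 and 68.0 CPM with and 78.1 and 56.9 CPM without, so the classes overlapped there. The difference of the differences was −2.44 (SE 0.26, adjusted p = 3.46e-09), where 1.33% of genes passed. Over all 4 samples the log2 difference was 1.42 (SE 0.34, adjusted p = 0.0259), and it was lost without MLN 1 (log2 0.69, adjusted p = 0.520), without MLN 2 (1.19, adjusted p = 0.165) and by DESeq2 (1.33, adjusted p = 0.476). Read by class, lung exceeded MLN by 2.56 log2 units (adjusted p = 0.000196) among cells without either UMI and by 0.11 (adjusted p = 0.691) among cells with one.

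The class is not the same kind of cell in both organs. In lung 79.7% and 71.6% of all cells held Nr4a1 without Egr2, against 2.72% and 2.52% in MLN, and Egr2 cells were 6.56% and 5.29% of lung and 7.11% and 10.7% of MLN cells. Split this way, Irf4 stood at 96.0 and 87.8 CPM in Egr2 cells of MLN 1 and 2, at 29.8 and 13.2 CPM in their cells with Nr4a1 but no Egr2 (the MLN 2 value rests on 2 UMIs in 19 cells), and at 11.3 and 15 CPM in the rest. In lung 1 it stood at 183, 66.1 and 78.1 CPM in that order and in lung 2 at 71.0, 67.7 and 56.9 CPM, where the Egr2 value rests on 13 UMIs. Over the 8 samples of the second run, Egr2 cells held 57.8 to 353 CPM and cells with neither gene 5.01 to 74.3 CPM, and in each sample the Egr2 cells were the higher. Cells with Nr4a1 but no Egr2 held 38.2 to 150 CPM there, above the cells with neither gene in 7 of the 8 samples. MLN 1 IL-4eGFP+ was the exception, at 38.2 against 42.7 CPM, and in MLN 2 IL-4eGFP- this class also exceeded the Egr2 cells, at 62.0 against 57.8 CPM.

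**Figure D3:**
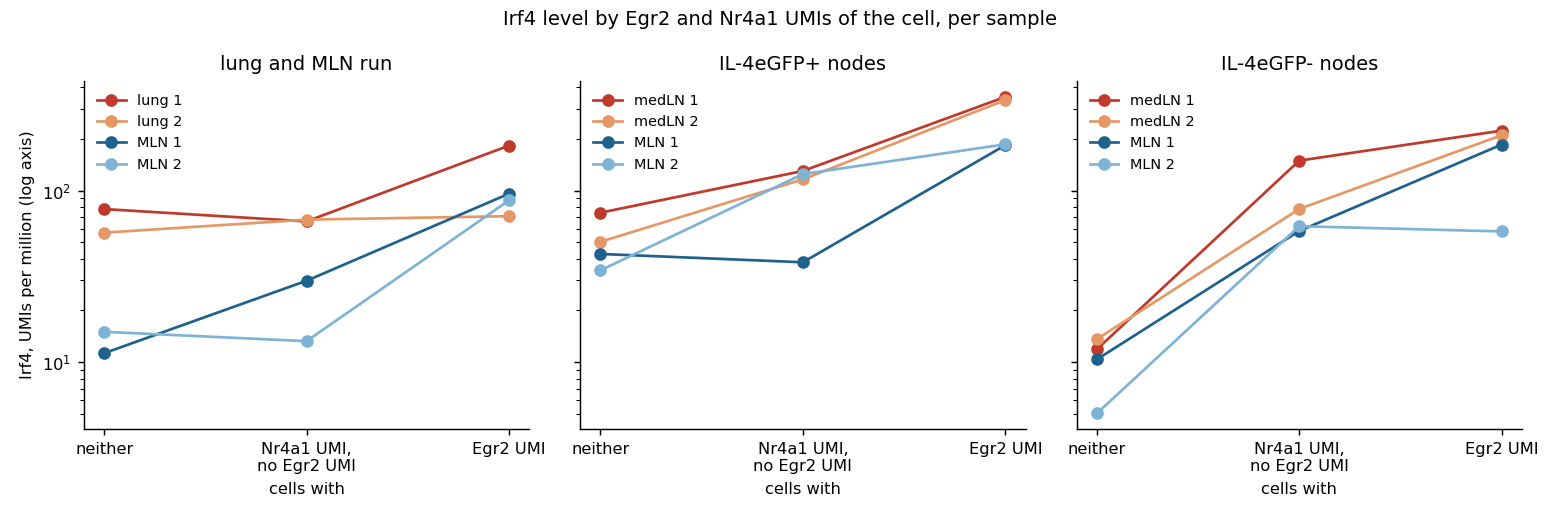
Irf4 level (CPM, log axis) in cells with neither Egr2 nor Nr4a1, with Nr4a1 but no Egr2, and with Egr2, 1 line per sample, in the 3 sets of samples. The lung lines start at 56.9 and 78.1 CPM in cells with neither gene, whereas the MLN lines of that run start at 11.3 and 15 CPM and reach 96.0 and 87.8 CPM in Egr2 cells.

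Of Irf1, Irf2, Irf3 and Irf8, none passed in the first run, where 2.98% of genes did. Irf8 passed in IL-4eGFP+ cells (log2 1.07, SE 0.28, adjusted p = 0.0205), where 7.61% did, with 3.91, 23.0, 13.2 and 25.3 CPM in cells with and 6.16, 6.09, 8.21 and 11.2 CPM in cells without a UMI, so medLN 1 went against the rest. The call was lost without medLN 2 (adjusted p = 0.181) or MLN 2 (0.162) and by DESeq2 (0.141). Irf1 passed in IL-4eGFP- cells, where 11.9% did, as lower in cells with a UMI (log2 −0.39, SE 0.11, adjusted p = 0.0186), but not without medLN 2 (adjusted p = 0.0511) or MLN 2 (0.179) or by DESeq2 (0.114). Marker cells were picked by a UMI, so they were often deeper than the rest, with medians of 7208 and 5674 UMIs in lung 1, for example, which CPM corrects only on average.

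Relative to all their UMIs, cycling cells held less Irf1 and Irf2. Cells with an Mki67 or Top2a UMI made up 13.4% to 27.7% of first-run samples, 18.1% to 21.5% of IL-4eGFP+ and 2.98% to 4.45% of IL-4eGFP- samples. In IL-4eGFP+ samples, Irf1 stood at 41.4, 39.9, 39.4 and 45.8 CPM in these cells and at 75.9, 95.1, 85.3 and 80.6 CPM in the rest (log2 −0.88, SE 0.07, adjusted p = 4.29e-10), where 66.9% of genes passed. The cycling cells of every sample were lower in CPM. They were also deeper, with medians of 7317 against 2911 UMIs in medLN 1, for example. There 407 cycling cells held 171 Irf1 UMIs and the other 1651 cells 405, so per cell the cycling cells held more. In IL-4eGFP- samples Irf1 stood at 80.8, 56.2, 71.6 and 79.7 CPM against 129, 150, 129 and 139 CPM (log2 −1.01, adjusted p = 1.11e-07), where 34.6% passed. In the first run the difference of −0.25 did not pass (adjusted p = 0.0516), where 26.0% did, although it did without lung 1 (−0.36, adjusted p = 0.0235). Irf2 was lower in cycling cells in all 3 sets, by log2 differences of −0.29, −0.66 and −0.32, and Irf3 in both gates of the second run (−0.29 and −0.39). The Irf2 call was lost in the first run without MLN 1 (adjusted p = 0.0658) and in the IL-4eGFP- gate without MLN 2 (0.0877) and by DESeq2 (0.0832). The Irf3 call in the IL-4eGFP- gate was lost without medLN 1, medLN 2 or MLN 2 (adjusted p from 0.0811 to 0.112) and by DESeq2 (0.186).

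Irf4 and Irf8 were higher in the cycling cells of the IL-4eGFP- samples, at log2 1.07 (SE 0.28, adjusted p = 0.00298) and 1.16 (SE 0.28, adjusted p = 0.00183). For Irf4 the values were 59.0, 18.3, 67.7 and 9.97 CPM against 21.2, 24.1, 14.2 and 8.16 CPM, so medLN 2 went the other way. The Irf4 call was lost without medLN 1 (adjusted p = 0.0527) or MLN 1 (0.0901). For Irf8 the cycling cells of medLN 1, medLN 2, MLN 1 and MLN 2 held only 12, 13, 9 and 14 UMIs. Irf8 in this gate stood at 35.9 to 134 CPM in cells with B cell, plasma cell or myeloid UMIs. The rest of the cells held 4.75 to 6.77 CPM. The Irf8 difference of cycling cells without such UMIs is not given here. In IL-4eGFP+ cells the difference of Irf4 was 0.17 (adjusted p = 0.103), and Irf8 was lower in cycling cells (−0.51, adjusted p = 0.0118). Without medLN 2 the Irf4 difference there passed (0.34, adjusted p = 0.000955), while that of Irf8 did not pass without MLN 2 (−0.42, adjusted p = 0.100) or by DESeq2 (adjusted p = 0.178). The gates differed in this effect for Irf2 (−0.40, adjusted p = 0.0101), Irf4 (−0.96, adjusted p = 0.0392) and Irf8 (−1.72, adjusted p = 0.000200), where 18.1% of genes did. Between lung and MLN none of the 5 differed in it by edgeR, where 0.984% of genes did, and Irf4 alone had an unadjusted p under 0.05.

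Interferon-high cells held UMIs of at least 2 of the 6 genes Ifit1, Ifit3, Isg15, Rsad2, Usp18 and Oasl2. They were 1.85% and 5.53% of lung, 22.2% and 7.56% of MLN, 5.99% to 11.9% of IL-4eGFP+ and 7.75% to 16.2% of IL-4eGFP- cells. Irf1 stood at 104, 151, 95.8 and 98.8 CPM in these cells of the IL-4eGFP+ samples and at 55.4, 66.8, 64.7 and 61.8 CPM in the rest. All 4 samples had the higher level in interferon-high cells, and the log2 difference was 0.89 (SE 0.10, adjusted p = 4.83e-06), where 10.8% of genes passed. Irf1 rose by 0.42 (adjusted p = 0.000404) in IL-4eGFP- cells, where 2.47% passed, and by 0.61 (adjusted p = 0.00854) in the first run, where 2.06% did, although MLN 2 stood at 85.4 against 103 CPM. The first-run call was lost without lung 1 (adjusted p = 0.105) or MLN 1 (0.213) and by DESeq2 (0.333). The effect was larger in the IL-4eGFP+ gate by 0.47 (SE 0.12, adjusted p = 0.0434), where 2.36% of genes passed. Between lung and MLN none of the 5 differed in it by edgeR, where 0.198% did, although Irf1 and Irf8 had an unadjusted p under 0.05. That of Irf8 carries no weight, since the 20 and 23 interferon-high cells of lung 1 and 2 held 0 Irf8 UMIs.

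Irf2 rose with Irf1 in the second run, by 0.53 (adjusted p = 0.000191) and 0.38 (adjusted p = 0.000880) in the IL-4eGFP+ and IL-4eGFP- gates, and stood 0.39 higher (adjusted p = 0.0740) in the first run. Irf3 did not pass in any set, with differences of 0.05 to 0.07, and neither did Irf4, with 0.36, −0.30 and −0.84, except in IL-4eGFP+ cells without MLN 1 (−0.58, adjusted p = 0.0127). Irf8 passed in the IL-4eGFP- gate (log2 1.33, adjusted p = 0.0225), but among cells without B cell, plasma cell or myeloid UMIs its difference was 0.62 (adjusted p = 0.577). It was also lost without medLN 1, medLN 2 or MLN 1, with adjusted p from 0.0688 to 0.329. Irf7 and Irf9, which type I interferon induces, were 2.40 to 2.86 and 1.00 to 1.21 log2 units higher in interferon-high cells of the 3 sets.

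Cxcr5, the receptor that leads T cells to B cell follicles, split the gates. In IL-4eGFP+ samples, Irf4 stood at 34.1, 40.7, 37.0 and 28.3 CPM in Cxcr5 cells and at 111, 83.6, 56.9 and 53.3 CPM in the rest (log2 −1.06, SE 0.11, adjusted p = 7.53e-08), where 25.5% of genes passed. In IL-4eGFP- samples it stood at 102, 60.4, 61.7 and 26.2 CPM in Cxcr5 cells and at 21.7, 22.6, 16.7 and 7.83 CPM in the rest (log2 1.73, SE 0.29, adjusted p = 4.25e-05), where 7.81% did. Every IL-4eGFP+ sample had less Irf4 in its Cxcr5 cells and every IL-4eGFP- sample more. The gates differed in this effect by −2.78 (SE 0.32, adjusted p = 8.07e-08), where 9.22% of genes passed. The IL-4eGFP- values rest on 36 to 52 Cxcr5 cells and 5 to 26 Irf4 UMIs a sample. Without cells that held B cell, plasma cell or myeloid UMIs, the difference in IL-4eGFP- samples was 1.95 (adjusted p = 4.03e-06). In the first run, with lung 2 left out for its 4 Cxcr5 cells, it was −0.07 (adjusted p = 0.987), and 2.97% of genes passed. Without lung 1 as well, which held 35 Cxcr5 cells, the MLN samples alone gave −0.71 (adjusted p = 0.00101).

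Irf8 was higher in Cxcr5 cells of both gates, at log2 0.60 (SE 0.19, adjusted p = 0.0211) and 2.15 (SE 0.37, adjusted p = 9.06e-05), with a difference between the gates of −1.5 (adjusted p = 0.00503). In IL-4eGFP- samples it stood at 35.4, 38.4, 39.3 and 57.6 CPM in Cxcr5 cells and 10.1, 10.4, 7.37 and 6.65 CPM in the rest. The call in the IL-4eGFP+ gate was lost without medLN 2 (adjusted p = 0.107) or MLN 1 (0.114) and by DESeq2 (0.269). Without cells with B cell, plasma cell or myeloid UMIs the differences were 1.02 (adjusted p = 0.00317) and 1.83 (adjusted p = 0.0440). Irf1 was lower in Cxcr5 cells of the IL-4eGFP- gate (−0.63, adjusted p = 0.0162), but not without medLN 2, MLN 1 or MLN 2 (0.0726 to 0.0997) or by DESeq2 (0.116), and Irf2 differed between the gates in this effect by 0.51 (adjusted p = 0.0412) although neither gate passed alone, except IL-4eGFP+ without MLN 2 (0.23, adjusted p = 0.0334).

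Foxp3, the factor of regulatory T cells, was read only in the IL-4eGFP- samples, and Il13, the effector cytokine of lung Th2 cells, only in lung. The IL-4eGFP+ node samples also held 21 to 65 Foxp3 cells and 19 to 70 Il13 cells each, which were not tested. In IL-4eGFP- samples, Irf4 stood at 44.7, 78.4, 29.6 and 17.3 CPM in cells with a Foxp3 UMI and at 21.6, 14.8, 16.6 and 7.24 CPM in the rest. Every sample had more Irf4 in its Foxp3 cells (log2 1.36, SE 0.23, adjusted p = 0.000313), where 24.4% of genes passed, and none of the other 4 genes did. In the lung, Irf1 stood at 82.2 and 81.9 CPM in cells with an Il13 UMI and at 117 and 110 CPM in the rest (log2 −0.49, SE 0.11, adjusted p = 0.0180), where 5.07% passed, but not by DESeq2 (adjusted p = 1), while Irf4 stood at 68.7 and 56.6 against 79.7 and 68.9 CPM (−0.24, adjusted p = 0.357). Over all marker classes and sets, 28 of 70 tests of the 5 genes passed, 16 as higher and 12 as lower, where 2.06% to 66.9% of all genes passed by class and set. By DESeq2 18 of the 70 passed, and each of the calls lost is given with its DESeq2 value.

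**Figure D4:**
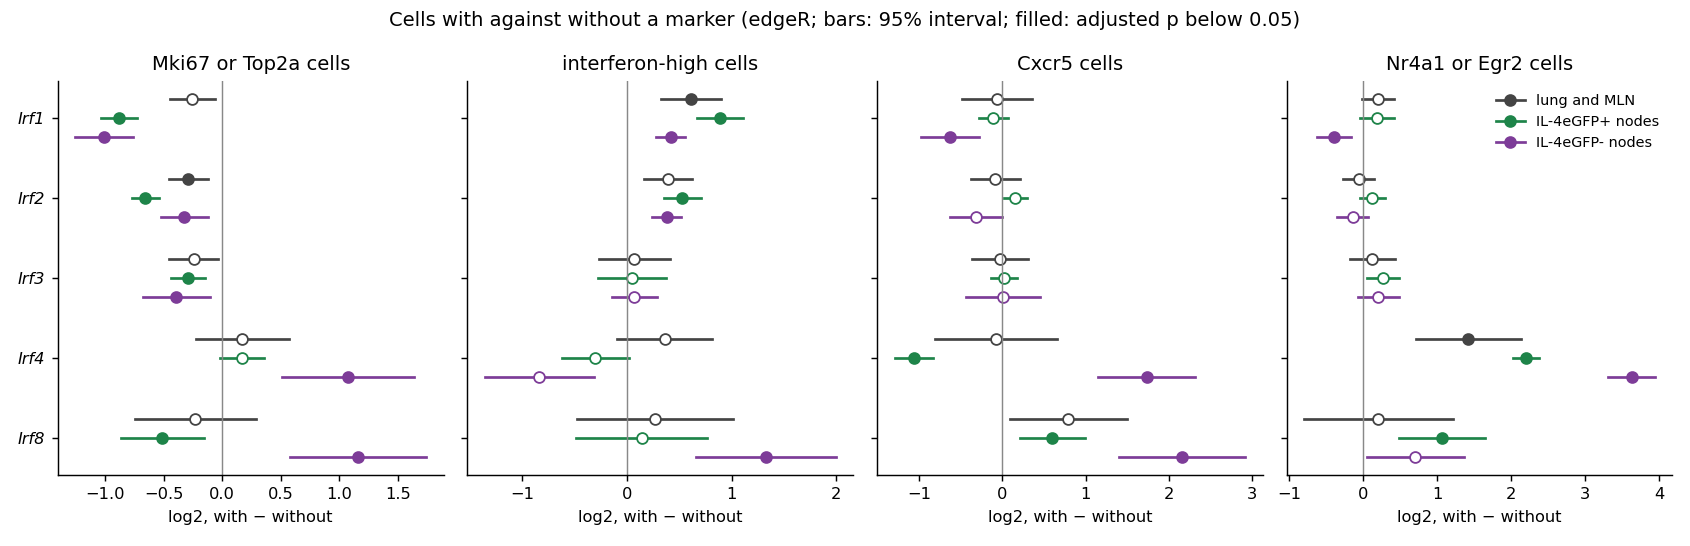
Log2 differences between cells with and without a marker within samples, for 4 markers and 3 sets of samples, with 95% intervals from edgeR and filled points where the adjusted p was below 0.05. Irf4 lies at 3.62 for Nr4a1 or Egr2 cells of the IL-4eGFP- nodes, and for Cxcr5 cells it lies at −1.06 in IL-4eGFP+ and 1.73 in IL-4eGFP- nodes.

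Irf8 was low throughout, with 18 to 133 UMIs and 4.94 to 12.6 CPM a sample, and a UMI in 1.72% to 3.64% of cells. Its levels overlapped between lung and MLN of the first run. In the second run medLN and MLN did not overlap within either gate, nor did the gates within either organ. With 2 samples a group, such separation alone carries little weight. Irf8 was lower in IL-4eGFP+ than in IL-4eGFP- cells of the medLN, at 5.91 and 8.04 CPM against 10.9 and 11 CPM (log2 −0.82, adjusted p = 0.00917), where 47.3% of genes passed. Among medLN cells without B cell, plasma cell or myeloid UMIs the gates overlapped, at 4.26 and 5.92 against 5.45 and 4.75 CPM, and this was not tested. Over all MLN cells the values were 8.62 and 12.6 against 8.08 and 7.89 CPM (log2 0.20, adjusted p = 0.447), where 50.8% of genes passed. Over both organs the difference of −0.31 did not pass (adjusted p = 0.0980), although it did without medLN 2 IL-4eGFP+ (−0.43, adjusted p = 0.0478) or MLN 2 IL-4eGFP+ (−0.48, adjusted p = 0.0140).

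Cells with a UMI of any of 17 B cell, plasma cell and myeloid marker genes made up 2.03% to 14.0% of cells but held 2.08% to 59.0% of Irf8 UMIs. In the IL-4eGFP- samples Irf8 stood at 118, 134, 35.9 and 60.3 CPM in these cells and at 5.45, 4.75, 6.77 and 5.70 CPM in the rest. In the IL-4eGFP+ samples it stood at 16.8, 25.7, 21.5 and 32.6 CPM and at 4.26, 5.92, 5.84 and 8.17 CPM. In the lung the classes overlapped, at 4.35 and 8.56 against 5.69 and 6.36 CPM. Only 22 and 9 lung cells held such a UMI, with 2.08% and 5.56% of the 48 and 18 Irf8 UMIs of lung 1 and 2. In MLN 1 and 2 of the first run Irf8 stood at 16.7 and 8.57 CPM in cells with such a UMI and at 7.58 and 4.39 CPM in the rest. Single cells weighed heavily, since a cell of medLN 2 IL-4eGFP- held 27 of that sample's 83 Irf8 UMIs. The 6 B cell markers summed to 0.36 and 0.71 CPM in lung, with 5 and 4 of them at 0, and to 19.2 to 46.5 CPM in the second run, with at most 1 at 0. The 9 myeloid markers summed to 2.24 and 3.58 CPM in lung, with 5 and 6 at 0, and to 57.2 to 188 CPM in the second run. Whether these transcripts came from doublets, from free RNA or from sorted non-T cells was not tested. Irf4 and Irf8 were both seen in 1 of 4684 thinned cells of the first run, 7 of 7769 IL-4eGFP+ and 6 of 8491 IL-4eGFP- cells. An Irf8 UMI was in 0.490% of the cells with and 0.915% of the cells without an Irf4 UMI in the first run, in 1.56% and 0.943% in the IL-4eGFP+ and in 4.88% and 0.729% in the IL-4eGFP- nodes, counts too small to compare.

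**Figure D5:**
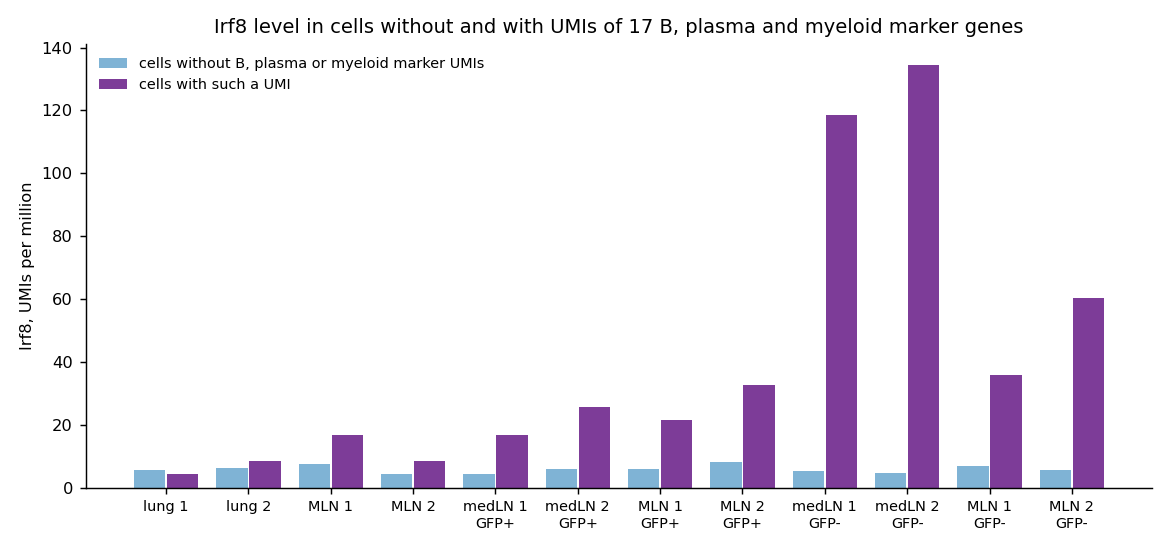
Irf8 level (CPM, linear axis from 0) in cells without and with a UMI of 17 B cell, plasma cell and myeloid marker genes, 1 pair of bars per sample and no error bars since each bar is a sum. Bars for cells without such a UMI lie between 4.26 and 8.17 CPM, while those with one reach 134 CPM in medLN 2 IL-4eGFP-.

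Over the 8 samples of the second run, the genes whose log2 levels followed each member most closely were listed as a description. Since these samples fall into 2 gates, a high r for Irf1, Irf2 and Irf4 mostly repeats the gate difference. The levels of Irf3 and Irf8 overlapped between the gates, so this does not hold for them. Their listed genes are the highest r among 5876 and 5877 genes over only 8 samples. Such a pick yields high values by itself, so these r carry little weight. Irf4 ran with Yars (Pearson r = 0.997), Phtf1 (0.993), Elk3, Rheb and Snx4, and Irf1 with Slc16a5 (0.997), Gm26917, Pja1, Il21r and Wdr82. Irf2 ran with Ncoa2 (0.994), Kpna4, Rpl29, Ptp4a3 and Gm13546, Irf3 with Golga4 (0.907), Epb41l2, Dhx15, Ahctf1 and Fbxo38, and Irf8 with Mplkip (0.917), Ndufv3, Hgs, Mtmr6 and Glul. Among the members, r was 0.939 for Irf1 and Irf2, −0.986 for Irf2 and Irf4, and −0.888 for Irf1 and Irf4.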

How the data were processed

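The deposited files hold counts of UMIs per gene and cell, made by the authors with Cell Ranger (2.1.1 and 3.0.1 for the lung and MLN run, 6.1.2 for the medLN and MLN run) against mouse genome mm10, with the 2 sequencing runs of each first-run library combined and the second-run libraries aggregated in a single matrix. The deposited TCR contig tables were used only to keep cells, and the hashtag counts only to assign cells, by HTODemux (Seurat 5.3.0). The members and lists were chosen with earlier results of these data known.

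Cells were kept above 500 UMIs and 500 genes, below 7% mitochondrial reads and above a novelty score (log genes over log UMIs) of 0.8, in the first run also with a productive TCR alpha and beta chain. Per gene and sample, UMIs were summed without 268 TCR genes. Sums were tested with edgeR 4.0.16 (quasi-likelihood test, filterByExpr, TMM, adjusted p below 0.05). SEs are the log2 difference over the root of F. Marker classes were summed within samples, with sample as a term, where a class held at least 20 cells. Tests of the difference between marker effects were chosen after seeing the data. Shares were also read after thinning cells to 1500 UMIs, which left out 518 cells. Doublets beyond hashtag calls were removed only as an alternative, and free RNA was not modelled. Library pairs shared 0 to 155 barcodes.

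Named genes were the 5 members, Irf5, Irf7 and Irf9, up to 4 genes per list and comparison (those past the threshold, at 10 CPM or more, with the largest change, or the 2 most abundant where none passed), and 5 likest genes per member of at least 20 CPM. The split by Egr2 and Nr4a1 and the value of Ifnar2 were chosen after their values were seen. On counts simulated from these samples, 131 of 199 genes changed by 1 log2 unit were recovered between lung and MLN, 150 of 194 and 160 of 196 between the nodes and 175 of 195 between the gates. Of the genes simulated without a change, 17, 16, 11 and 11 were called in these comparisons, in that order. Same-numbered samples came from the same mouse, and their deviations correlated at 0.04 in the first run and at 0.12 to 0.24 in the second. Depth was 2798232 to 14512767 UMIs a sample, and sums cover counting error and the spread of 2 mice. DESeq2 1.42.0, other scaling, filters, cell choices and samples left out were tried as alternatives. Some genes of the lists are not reported here.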

Additional observations from a re-analysis of the deposited data

Results flagged for a closer look

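The effects of the 2 gates, or of lung and MLN, differed by an interaction test for 10 results in marker cells, each given as the log2 difference in the first group minus that in the second. Between IL-4eGFP+ and IL-4eGFP- nodes, the effect of an Mki67 or Top2a UMI differed by −0.40 for Irf2, −0.96 for Irf4 and −1.72 for Irf8. The effect of a Cxcr5 UMI differed by 0.51 for Irf2, −2.78 for Irf4 and −1.5 for Irf8. The effect of interferon-high state differed by 0.47 for Irf1, and that of an Nr4a1 or Egr2 UMI by 0.59 for Irf1 and −1.42 for Irf4. Between lung and MLN, the effect of an Nr4a1 or Egr2 UMI on Irf4 differed by −2.44. In the IL-4eGFP- gate 2.98% to 4.45% of cells were cycling, so the cycling values there rest on 67 to 93 cells a sample. Those of Irf8 rest on 9 to 14 UMIs a sample.

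Irf8 was lower in medLN than in MLN in both mice among IL-4eGFP+ cells and higher in both among IL-4eGFP- cells. The difference of the 2 effects was −1.02 (SE 0.30, unadjusted p = 0.00609), which did not pass after adjustment over all genes by edgeR (adjusted p = 0.453). Among cells without B cell, plasma cell or myeloid UMIs, Irf8 was lower in medLN in both mice of both gates. There it stood at 5.45 and 4.75 against 6.77 and 5.70 CPM in IL-4eGFP- and at 4.26 and 5.92 against 5.84 and 8.17 CPM in IL-4eGFP+ cells. The interaction was not tested on these cells.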

How the results depend on the processing

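Of the 364 values of the 5 genes under alternatives to the 4 comparisons, 336 kept their direction and side of the threshold. Irf4 between the gates passed in 22 of 22 alternatives (log2 0.65 to 2.10) and Irf1 in 22 of 22 (−1.25 to −0.65), Irf4 between lung and MLN in 16 of 17, Irf2 between the gates in 21 of 22, and Irf3 in 14 of 17 between lung and MLN and 13 of 22 between the gates. With library sizes alone Irf3 between the gates reversed to 0.031. Counts moved most in the small comparisons. Between lung and MLN, 1833 genes passed by DESeq2, 2068 with equal cell numbers, 1761 among cells with and 1112 among cells without an Nr4a1 or Egr2 UMI (1 of the 5 genes in each of these), and 1907 to 3678 with a sample left out (1 to 3 of the 5). Between medLN and MLN of the IL-4eGFP+ gate, 47 passed without a filter on low counts, 248 without cells of B cell, plasma cell or myeloid UMIs, 47 among cells with an Nr4a1 or Egr2 UMI, and 13 to 191 with a sample left out (0 to 1 of the 5). There Irf4 was lost, leaving 0 of the 5, without the filter (adjusted p = 0.0946), in a fit of all 8 samples (0.0845) and among cells without an Nr4a1 or Egr2 UMI (0.119). In the IL-4eGFP- gate, 2 passed without the filter, 65 with the replicate block (1 of the 5), 11 without cells of other types, 5 in the fit of 8 samples, 4 among Nr4a1 or Egr2 cells, 12 without cycling cells, and 98 to 194 with a sample left out (0 to 1 of the 5), more than the 19 with all samples. Between the gates, 1558 passed among Nr4a1 or Egr2 cells (2 of the 5), and 6593 to 6891 with a sample left out (3 to 5). In marker cells DESeq2 called 18 of 70 (12 higher, 6 lower) rather than 28, and the 10 calls lost had adjusted p from 0.0832 to 1. By DESeq2 or without cells of B cell, plasma cell or myeloid UMIs, 12 of 140 marker-cell values lost a call and 2 gained one. Not all of these are named here. The causes were not tested. The replicate block changed no other call of the 5 genes. Cell subsets and library-size scaling were chosen after seeing the data. Leaving out a sample was not run for Il13, since 1 lung sample leaves no residual spread. Irf8 is limited by its 18 to 133 UMIs a sample.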
